A study of Homo sapiens with 6 samples.

Results

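Genes of the lysosome, of its proton pump and of the TFEB family were compared between *ZKSCAN3* knockout cells and their parental line, and they made up 52 of the 46427 genes in the count table. They were the rows whose symbol named a member of the TFEB family (3 genes), a lysosomal protease (9), a glycosidase, sulfatase or lipid hydrolase (10), a lumenal or activator protein (3), a lysosomal membrane protein (8), a V0 subunit (5), a V1 subunit (8), a V-ATPase accessory subunit (1) or a component or regulator of mTORC1 at the lysosome (5). Of these, 51 had enough reads to be tested and *CTSF*, a cysteine protease, had 0 reads in every library. A count of 0 allows up to 3 reads, or between 0.0428 and 0.0485 CPM (counts scaled to a common library size) per library, counting error only.

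Lysosomes are acidic organelles in which hydrolases break down proteins, sugars and lipids delivered by endocytosis and autophagy. The vacuolar H+-ATPase (V-ATPase) acidifies them, and its V1 sector hydrolyses ATP in the cytosol and turns a rotor that drives protons through the V0 sector in the membrane. The kinase complex mTORC1 is recruited to the lysosome by Rag GTPases when nutrients are plentiful and keeps TFEB and TFE3 in the cytosol, and these factors bind E-boxes in lysosomal gene promoters once they enter the nucleus. ZKSCAN3, a DNA-binding zinc finger protein, has been described as a repressor of autophagy and lysosome genes.

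RNA sequencing libraries were made from HCT116, a human colorectal carcinoma cell line. The *ZK3*-WT group was the parental line with wild type *ZKSCAN3*. The *ZK3*-KO group was a derived line in which both *ZKSCAN3* alleles were mutated with CRISPR/Cas9 guides against exon 1. Each group had 3 libraries from separate cultures in the same serum-containing medium. The knockout line was picked from single cells under puromycin, so the genotype cannot be told apart from the history of 1 clone, and the p-values measure the spread between cultures of that line. In bulk RNA a smaller number of expressing cells and less RNA per cell cannot be told apart either.

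Between 60827060 and 69739215 reads were counted per library. *ZKSCAN3* (GRCh37 chromosome 6, 28317724-28336949) was read at 28.1, 23.4 and 19.8 CPM in the *ZK3*-WT libraries and at 25.4, 24.9 and 13.6 CPM in the *ZK3*-KO libraries. The log2 fold change of *ZKSCAN3* was -0.16 (standard error 0.27, FDR 0.797 in edgeR). A count over the whole gene does not show whether exon 1 was mutated, so these reads do not check the knockout. *ZK3*-KO replicate 3 stood apart from the other *ZK3*-KO libraries, with correlations of log2 CPM across genes of 0.950 and 0.963. All pairs within a genotype that did not hold it had 0.983 to 0.989. Results that rest on this library are therefore given with and without it. All 5 epithelial markers were above 1 CPM in every library, and their summed level was 2935 to 3728 CPM in *ZK3*-WT and 2722 to 5425 CPM in *ZK3*-KO. Of 3 fibroblast markers, *COL1A1* was present (44.2 to 56.3 CPM in *ZK3*-WT, 32.2 to 98.8 CPM in *ZK3*-KO), while *COL3A1* and *DCN* stayed at or below 0.146 CPM. The 3 endothelial markers summed to 1.03 to 1.86 CPM in *ZK3*-WT and to 0.462 to 1.15 CPM in *ZK3*-KO. The 3 immune markers summed to at most 0.186 CPM, with *PTPRC* and *CD3E* at 0 reads.

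In *ZK3*-KO cells 1 member rose and 1 fell past a false discovery rate (FDR) of 0.05. *ATP6V1D*, the rotor subunit D of V1, rose 1.89-fold, and *CTSH*, a lysosomal cysteine protease with aminopeptidase activity, fell to 0.367 of its *ZK3*-WT level. These were 2 of 51 tested members, where 2.05% of the 18366 genes tested passed (0.817% upward and 1.23% downward). Of the members, 33 had a log2 fold change above 0 and 18 below, 64.7% above 0 against 51.7% of all genes. The median log2 fold change over the members was 0.12, beside 0.02 over all genes tested. Without *ZK3*-KO replicate 3 the medians were 0.06 and -0.02, and 30 members (beside 48.6% of all genes) were above 0. With the replicate number as a block, 2 members and 2.51% of all genes passed. On the log2(TPM + 1) scale the medians of the members and of all genes were -0.04 and -0.08. On that scale 23 of the 51 members (beside 37.8% of all genes) were above 0, so the sign of the members' median depends on the scaling. The members together held between 0.387% and 0.418% of all length-scaled transcript counts (TPM) in each library.

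For 19 members (37.3%) the 3 *ZK3*-KO libraries did not overlap the 3 *ZK3*-WT libraries in CPM, beside 26.6% of all genes tested. They were higher in *ZK3*-KO for 13 members and lower for 6, beside 12.7% and 13.8% of all genes in these directions. Before adjustment, 14 members had p under 0.05 in edgeR (12 higher, 2 lower). Beside them were 18.4% of all genes tested (1633 genes higher, 1738 lower).

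**Figure D1:**
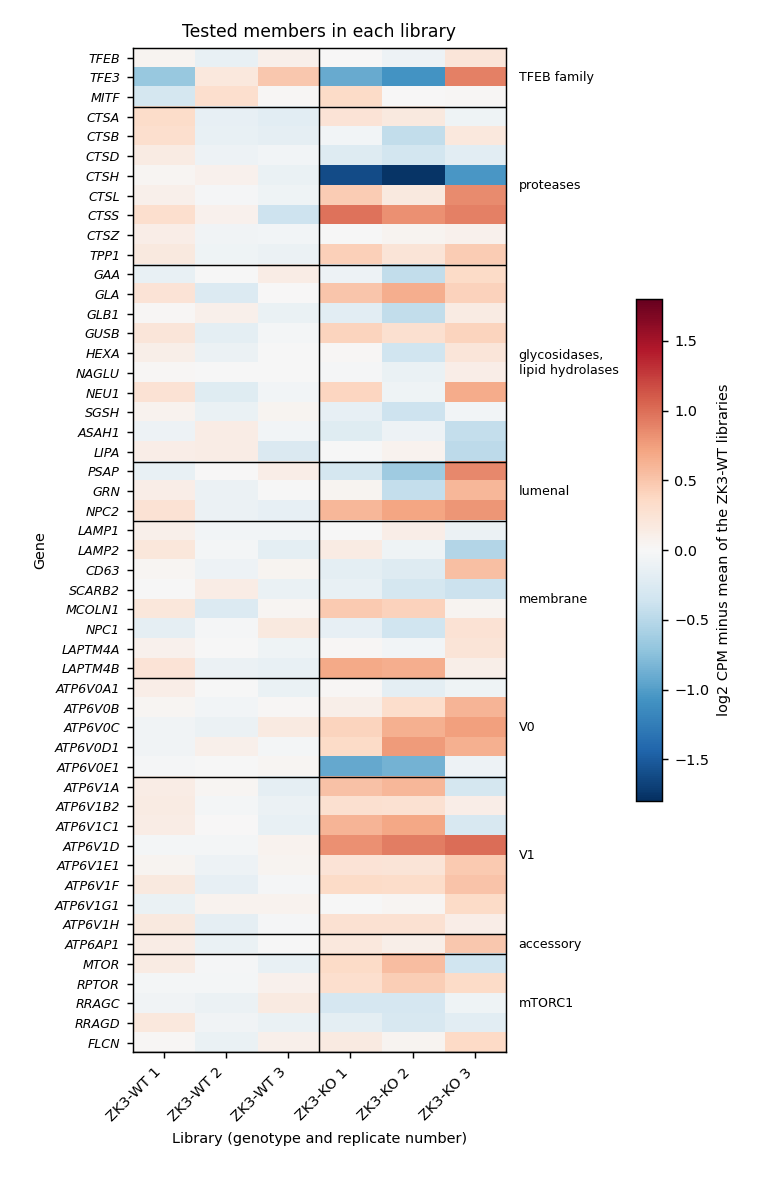
Each row is 1 of the 51 tested members and each column 1 library, with the colour giving log2 CPM minus the mean of the 3 *ZK3*-WT libraries. *CTSH* is blue and *ATP6V1D* red in all 3 *ZK3*-KO libraries, while *TFE3* and *PSAP* are blue in *ZK3*-KO replicates 1 and 2 and red in replicate 3.

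The TFEB family holds the transcription factors of the gene set. In the parental libraries (replicates 1, 2 and 3 in this order throughout) *TFEB* had 5.65, 4.99 and 5.84 CPM, and in *ZK3*-KO it had 5.53, 5.12 and 6.41 CPM. The groups overlapped, and the log2 fold change was 0.05 (standard error 0.20, FDR 0.922 in edgeR). *MITF*, the member best known from melanocytes and osteoclasts, was lower still, with 2.59, 4.01 and 3.29 CPM in *ZK3*-WT and 4.13, 3.27 and 3.30 CPM in *ZK3*-KO. The *MITF* log2 fold change was 0.11 (standard error 0.25, FDR 0.848 in edgeR), again with overlapping groups. The signs of both small values changed with the scaling.

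*TFE3* was the most abundant of the family per transcript length, at 36.7 ± 13.9 TPM in *ZK3*-WT and 28.7 ± 19.8 TPM in *ZK3*-KO (SD, n = 3), beside 4.95 ± 0.340 and 4.71 ± 0.197 TPM for *TFEB* and 1.46 ± 0.317 and 1.45 ± 0.334 TPM for *MITF*. Its libraries were spread widely, with 33.5, 60.9 and 75.1 CPM in *ZK3*-WT and 28.6, 25.3 and 100.1 CPM in *ZK3*-KO. Replicates 1 and 2 of *ZK3*-KO lay below every *ZK3*-WT library and replicate 3 above them all. The log2 fold change was -0.14 (standard error 0.55, FDR 0.924 in edgeR), and it was -1.07 (FDR 0.0431) without *ZK3*-KO replicate 3. With both libraries numbered 3 left out it was -0.80 (FDR 0.113), and no TFEB family gene passed, beside 6.15% of all genes.

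TFEB and TFE3 recognise the E-box CACGTG, which is the core of the longer palindrome of the CLEAR element. That palindrome is TCACGTGA with a G before it and a C after it. In windows of 250 bases before to 50 bases after the transcript start, taken from RefSeq (GRCh38.p14), 37 of the 52 members had an entry. Each motif is its own reverse complement, and the longer ones contain the shorter. CACGTG was found for 12 of the 37 (32.4%), beside 8.77% of all 27305 genes with a window. TCACGTGA was found for 6 (16.2%), *ATP6V1G1*, *LAMP1*, *ATP6V0D1*, *GAA*, *MCOLN1* and *CTSA*, beside 1.18% of all genes. The CLEAR palindrome was found for 3 (8.11%), *ATP6V1G1*, *GAA* and *MCOLN1*, beside 0.421% of all genes. Of these promoters 5 are shown for the 90 bases before the start, 5′ to 3′ on the strand of the gene, with TCACGTGA, or the whole CLEAR palindrome where it is complete, in capitals.

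ATP6V0D1, chr16:67481158-67481247, minus strand: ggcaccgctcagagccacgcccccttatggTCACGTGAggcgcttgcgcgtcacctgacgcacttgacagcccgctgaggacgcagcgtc
ATP6V1G1, chr9:114587679-114587768, plus strand: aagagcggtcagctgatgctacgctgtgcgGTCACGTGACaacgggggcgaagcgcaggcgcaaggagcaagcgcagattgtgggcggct
CTSA, chr20:45891245-45891334, plus strand: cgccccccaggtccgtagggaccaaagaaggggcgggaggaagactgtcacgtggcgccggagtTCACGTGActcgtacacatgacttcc
GAA, chr17:80101491-80101580, plus strand: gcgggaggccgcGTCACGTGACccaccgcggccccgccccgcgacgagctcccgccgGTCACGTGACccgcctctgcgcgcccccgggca
MCOLN1, chr19:7522534-7522623, plus strand: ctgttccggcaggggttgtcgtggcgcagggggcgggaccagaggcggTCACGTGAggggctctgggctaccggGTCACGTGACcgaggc

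Of the promoters shown, *GAA* and *MCOLN1* each carried a pair of these elements, and in *GAA* the capitals begin 78 and 33 bases before the start. *LAMP1*, not shown, also held a pair of TCACGTGA, beginning 29 and 2 bases before the start. The 6 members with TCACGTGA had a median log2 fold change of 0.11, and the 30 tested members with a window but without TCACGTGA had one of 0.17. None of the 6 passed an FDR of 0.05 in edgeR with all 6 libraries, beside 2.05% of all genes. In DESeq2, 1 of them, *ATP6V0D1*, passed (adjusted p 0.0211), beside 8.2% of all genes.

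Among the proteases the widest difference was that of *CTSH* (GRCh37 chromosome 15, 79213400-79241916, minus strand). It had 24.3, 25.0 and 21.8 CPM in *ZK3*-WT and 7.75, 6.91 and 11.5 CPM in *ZK3*-KO, so all *ZK3*-KO libraries lay below all *ZK3*-WT libraries. The means were 23.7 ± 1.70 and 8.70 ± 2.42 CPM (SD, n = 3), and the log2 fold change was -1.44 (standard error 0.22, FDR 0.0259 in edgeR). *CTSH* remained lower by 1.30 to 1.69 on the log2 scale when each library was left out in turn, but it kept an FDR under 0.05 only when the library left out was *ZK3*-KO replicate 3 (FDR 0.000802 in edgeR), and reached 0.153 without *ZK3*-WT replicate 2. Genes of chromosome 15 as a whole had a median log2 fold change of 0.04. The 250 bases before the *CTSH* start, shown because it is the member that fell, held none of the E-box letters searched.

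CTSH, chr15:78945047-78945296, minus strand: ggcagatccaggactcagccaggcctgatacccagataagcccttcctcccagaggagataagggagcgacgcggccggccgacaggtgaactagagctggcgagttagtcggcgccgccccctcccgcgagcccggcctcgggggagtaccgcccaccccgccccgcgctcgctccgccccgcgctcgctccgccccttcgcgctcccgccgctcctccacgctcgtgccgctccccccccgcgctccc

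The other proteases did not pass in edgeR with all libraries, beside 2.05% of all genes. *CTSL*, a cysteine endopeptidase, had 42.5, 39.0 and 37.8 CPM in *ZK3*-WT and 54.5, 44.9 and 71.9 CPM in *ZK3*-KO, and all *ZK3*-KO libraries were higher (log2 fold change 0.52, standard error 0.19, FDR 0.216 in edgeR). *TPP1*, a tripeptidyl peptidase, had 92.7, 78.0 and 76.8 CPM in *ZK3*-WT and 111, 96.9 and 112 CPM in *ZK3*-KO, also without overlap (log2 fold change 0.37, FDR 0.240 in edgeR). *CTSD*, the main aspartic protease of the lysosome, went the other way, with 144, 123 and 126 CPM in *ZK3*-WT and 111, 103 and 115 CPM in *ZK3*-KO (log2 fold change -0.25, FDR 0.379 in edgeR). These differences were smaller than that of *CTSH*, and none was past the threshold in any alternative.

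*CTSS*, a cysteine protease of antigen-presenting cells, had the highest log2 fold change of the tested members in edgeR, 0.98, at the lowest level of them. On the log2(TPM + 1) scale, which compresses low levels, its value was 0.094 and *ATP6V1D* was the highest at 0.77. *CTSS* had 0.223, 0.185 and 0.129 CPM in *ZK3*-WT and 0.373, 0.332 and 0.356 CPM in *ZK3*-KO (standard error 0.39, FDR 0.245 in edgeR). The groups did not overlap, but each library held only 9 to 24 reads of it, and the filter for at least 10 reads in every library removed it. Per transcript length *CTSZ* had the highest mean TPM of the proteases over all 6 libraries, at 133 ± 7.68 TPM in *ZK3*-WT and 126 ± 13.3 TPM in *ZK3*-KO (SD, n = 3). In *ZK3*-WT alone *CTSD* was level with it, at 134 ± 10.2 TPM (SD, n = 3). *CTSA*, which also protects GLB1 and NEU1 in a complex, and *CTSB* had log2 fold changes of 0.10 and -0.10 with overlapping groups.

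No glycosidase, sulfatase or lipid hydrolase passed in edgeR with all libraries, beside 2.05% of all genes. Of the 10, 7 were below 0, with a median log2 fold change of -0.03, while 51.7% of all genes were above 0. *GLA*, which removes terminal alpha-galactose from glycolipids, had 19.0, 13.5 and 16.2 CPM in *ZK3*-WT and 22.6, 25.2 and 21.3 CPM in *ZK3*-KO. All its *ZK3*-KO libraries were higher (log2 fold change 0.51, standard error 0.18, FDR 0.198 in edgeR). *GUSB*, the beta-glucuronidase, had 39.0, 29.8 and 32.8 CPM in *ZK3*-WT and 44.6, 41.1 and 44.3 CPM in *ZK3*-KO (log2 fold change 0.36, FDR 0.269 in edgeR). Its value is uncertain, since the table lists 14 *GUSB* pseudogenes with up to 1585 reads in a library, among which reads could be split.

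*ASAH1*, the acid ceramidase, had the lowest value of this role. It had 54.2, 63.0 and 55.7 CPM in *ZK3*-WT and 49.2, 54.0 and 42.7 CPM in *ZK3*-KO, without overlap (log2 fold change -0.24, standard error 0.15, FDR 0.430 in edgeR). *GAA*, the acid alpha-glucosidase, was the most abundant of the role per transcript length, at 102 ± 9.44 TPM in *ZK3*-WT and 90.3 ± 14.1 TPM in *ZK3*-KO (SD, n = 3). *NAGLU*, a heparan sulfate hydrolase, was the least abundant, at 11.0 ± 0.324 and 10.3 ± 0.743 TPM, and its CPM ranged from 12.2 to 14.4 over the 6 libraries. *SGSH*, *GLB1*, *LIPA*, *HEXA* and *NEU1* had overlapping groups and log2 fold changes from -0.18 to 0.34.

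*NPC2*, the lumenal protein that hands cholesterol to NPC1, had the smallest p of all members after *ATP6V1D* and *CTSH*. It had 77.6, 59.8 and 58.3 CPM in *ZK3*-WT and 97.8, 105 and 112 CPM in *ZK3*-KO, with every *ZK3*-KO library higher. The log2 fold change was 0.69 (standard error 0.16, FDR 0.0859 in edgeR), short of the threshold, and it was 0.65 (FDR 0.0247) without *ZK3*-KO replicate 3. DESeq2 also put it past the threshold (adjusted p 0.00515). The gene lies on chromosome 14 (GRCh37, 74942895-74960880, minus strand). Tested genes of that chromosome were higher as a whole, with a median log2 fold change of 0.51 over 504 genes, 80.2% of them above 0, and this shift was 0.48 without *ZK3*-KO replicate 3. *ATP6V1D* is the only other member on chromosome 14, and the part of the shift in the values of these genes was not tested. *NPC1*, the membrane protein that receives the cholesterol, is on chromosome 18 and was at -0.07 on the log2 scale (FDR 0.882 in edgeR).

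NPC2, chr14:74493513-74493762, minus strand: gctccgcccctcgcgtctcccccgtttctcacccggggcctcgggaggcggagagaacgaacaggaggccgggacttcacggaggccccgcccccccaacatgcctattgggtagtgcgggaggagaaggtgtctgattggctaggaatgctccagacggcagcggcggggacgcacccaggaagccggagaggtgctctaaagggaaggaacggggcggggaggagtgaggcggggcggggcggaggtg

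These 250 bases (GRCh38.p14) are shown because *NPC2* had the third smallest p of the members, and they held no CACGTG. The other lumenal proteins were *PSAP*, the precursor of the saposins that present sphingolipids to their hydrolases, and *GRN*, the precursor of granulins. *PSAP* had 620.1, 685 and 741 CPM in *ZK3*-WT and 545, 435 and 1242 CPM in *ZK3*-KO, so replicate 3 was the highest of the 6 libraries and the other *ZK3*-KO replicates were the lowest. The *PSAP* log2 fold change was 0.12 (standard error 0.38, FDR 0.901 in edgeR) with all libraries and -0.47 (FDR 0.0602) without *ZK3*-KO replicate 3. It was the most abundant member per transcript length, at 524 ± 48.9 TPM in *ZK3*-WT and 499 ± 226 TPM in *ZK3*-KO (SD, n = 3). *GRN* followed the same order of the libraries within *ZK3*-KO, with 182, 129.9 and 265 CPM, and its log2 fold change of 0.13 likewise turned to -0.16 without replicate 3.

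**Figure D2:**
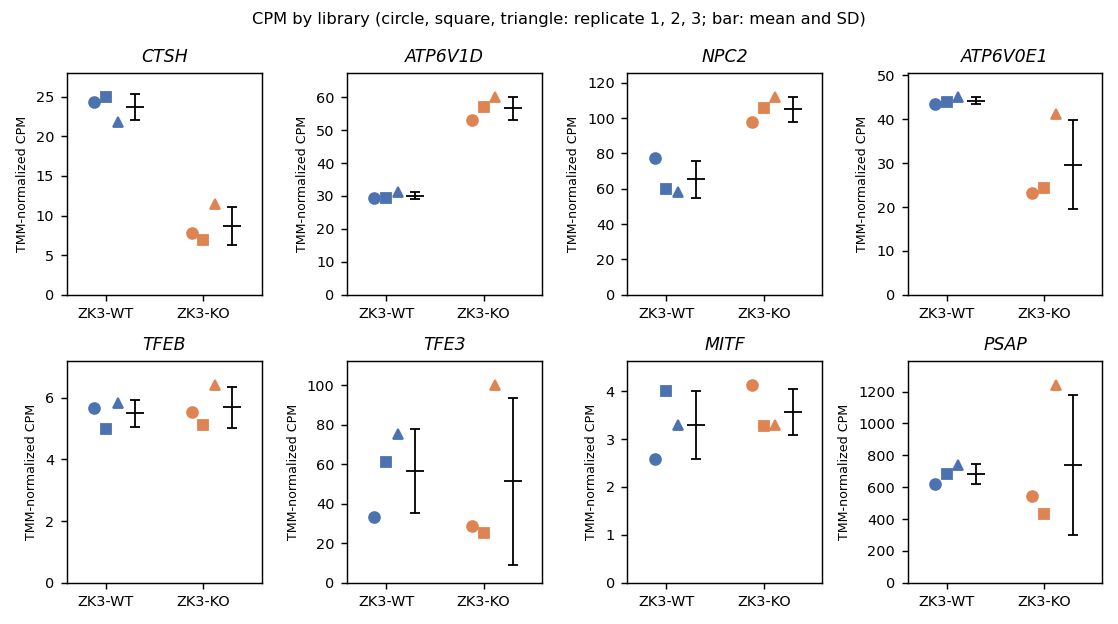
TMM-normalized CPM of 8 members in each library, with markers for replicates 1, 2 and 3 and bars for the mean and SD (n = 3). *CTSH*, *ATP6V1D*, *NPC2* and *ATP6V0E1* do not overlap between genotypes, whereas *TFEB*, *TFE3*, *MITF* and *PSAP* do, and replicate 3 of *ZK3*-KO is the highest library of *TFE3* (100.1 CPM) and *PSAP* (1242 CPM).

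None of the 8 membrane proteins passed in edgeR with all libraries, beside 2.05% of all genes, and their median log2 fold change was 0.03. *SCARB2*, which carries glucocerebrosidase to the lysosome, was lower in all *ZK3*-KO libraries, with 103, 113 and 95.2 CPM in *ZK3*-WT and 94.0, 83.1 and 78.9 CPM in *ZK3*-KO (log2 fold change -0.28, standard error 0.14, FDR 0.350 in edgeR). *LAPTM4B*, a small membrane protein of late endosomes and lysosomes, had 374, 295 and 289 CPM in *ZK3*-WT and 508, 497 and 343 CPM in *ZK3*-KO. Replicate 3 of *ZK3*-KO overlapped the *ZK3*-WT range, and the log2 fold change was 0.49 (standard error 0.21, FDR 0.267 in edgeR) with it and 0.66 (FDR 0.0183) without it. *LAPTM4B* also had the highest mean TPM of this role over all 6 libraries, at 276 ± 38.0 TPM in *ZK3*-WT and 364 ± 112 TPM in *ZK3*-KO (SD, n = 3), although in *ZK3*-WT *CD63* was higher, at 322 ± 12.8 TPM (SD, n = 3).

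*LAMP1*, an abundant glycoprotein of the lysosomal membrane, ranged from 175 to 205 CPM over the 6 libraries, and the log2 fold change was 0.00 (standard error 0.14, FDR 0.994 in edgeR). *LAMP2*, needed for fusion of autophagosomes with lysosomes, had one of -0.13, and *LAPTM4A* had one of 0.07. *MCOLN1*, the TRPML1 calcium channel, was the least abundant membrane protein, at 10.8 ± 1.48 TPM in *ZK3*-WT and 12.6 ± 3.25 TPM in *ZK3*-KO (SD, n = 3), and its log2 fold change was 0.31 (FDR 0.448 in edgeR). *CD63*, a tetraspanin, had 140.0, 134 and 230.1 CPM in *ZK3*-KO against 149 to 164 CPM in *ZK3*-WT, with replicate 3 again the highest library. The *CD63* log2 fold change was 0.09 (FDR 0.871 in edgeR) with all libraries and -0.20 (FDR 0.296) without *ZK3*-KO replicate 3.

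Of the 14 V-ATPase members, 12 had a log2 fold change above 0 (85.7%, beside 51.7% of all genes), and their median was 0.32, while the other 37 tested members had a median of 0.05. Taken library by library against the *ZK3*-WT mean, the median of the 14 was 0.08, -0.03 and -0.02 in the *ZK3*-WT libraries and 0.28, 0.30 and 0.41 in the *ZK3*-KO libraries, so the lowest *ZK3*-KO library was above the highest *ZK3*-WT library. *ATP6V1D* was the 1 subunit that passed in edgeR, beside 2.05% of all genes. DESeq2 also put *ATP6V0C* and *ATP6V0D1* past the threshold, beside 8.2% of all genes. The median of the 13 subunits other than *ATP6V1D* was also 0.32. Without *ZK3*-KO replicate 3 the 14 had a median of 0.28, with 12 above 0, and on the log2(TPM + 1) scale one of 0.17, with 11 above 0. The groups of 7 of the 14 did not overlap (6 higher, 1 lower), beside 26.6% of all genes (12.7% higher, 13.8% lower). The 16 tested genes of a further list of V-ATPase subunits and assembly factors outside the gene set had a median of -0.02, with 7 above 0.

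**Figure D3:**
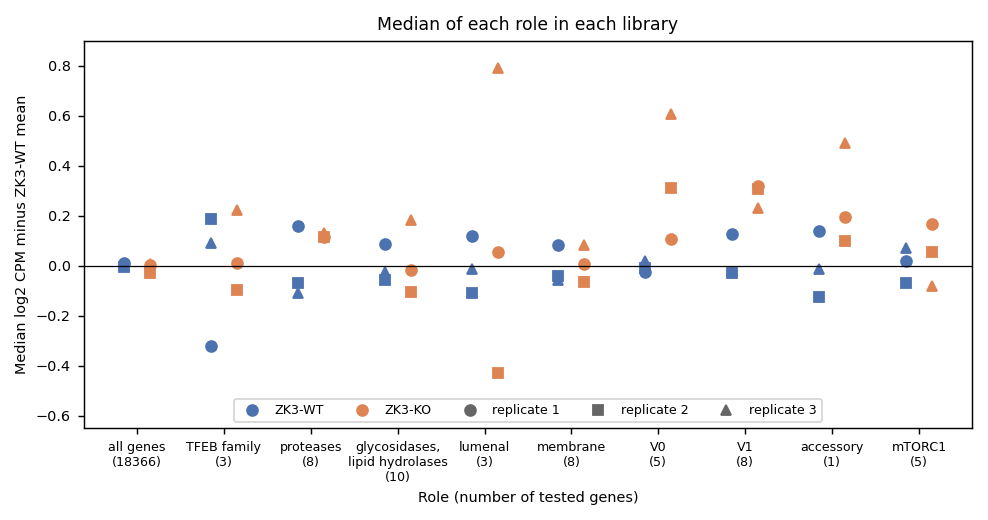
Median over the genes of each role of log2 CPM minus the *ZK3*-WT mean, 1 point per library, with all genes tested on the left. The *ZK3*-KO points of V0 and V1 lie above all *ZK3*-WT points, those of the TFEB family, the hydrolases, the membrane proteins and the mTORC1 genes overlap them, and *ZK3*-KO replicate 3 is the highest point of the lumenal proteins (0.79).

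*ATP6V1D* (GRCh37 chromosome 14, 67761088-67826982, minus strand) had 29.4, 29.4 and 31.2 CPM in *ZK3*-WT and 52.9, 56.9 and 60.0 CPM in *ZK3*-KO. The *ZK3*-KO libraries were all higher than the *ZK3*-WT libraries, with means of 56.6 ± 3.55 and 30.0 ± 1.06 CPM (SD, n = 3). The log2 fold change was 0.92 (standard error 0.13, FDR 0.0212 in edgeR). It stayed between 0.88 and 0.97 when each library was left out, but the FDR was under 0.05 only without *ZK3*-KO replicate 3 (0.00471 in edgeR) and reached 0.153 without *ZK3*-WT replicate 2. As described for *NPC2*, genes of chromosome 14 had a median of 0.51. *ATP6V1D* overlaps *PALS1* on the opposite strand in the GRCh37 annotation, and whether the deposited counts used strand is not given in the sources used here. The same limit holds for other members with an opposite-strand overlap, among them *NPC2*, *GLA*, *TPP1*, *ATP6V0B*, *ATP6V1F* and *RPTOR*, while *CTSH* had no such overlap. Its 250 promoter bases (GRCh38.p14), shown because it is the member that rose, held no CACGTG.

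ATP6V1D, chr14:67359805-67360054, minus strand: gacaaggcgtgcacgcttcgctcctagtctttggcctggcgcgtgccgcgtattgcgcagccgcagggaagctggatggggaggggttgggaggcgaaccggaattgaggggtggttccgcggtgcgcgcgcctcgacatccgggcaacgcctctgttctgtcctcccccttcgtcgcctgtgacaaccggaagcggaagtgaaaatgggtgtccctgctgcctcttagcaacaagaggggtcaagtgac

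All 8 V1 subunits had a log2 fold change above 0 with all libraries, from 0.13 to 0.92, except that *ATP6V1G1* was at -0.00 on the log2(TPM + 1) scale. *ATP6V1F*, a rotor subunit, had 41.9, 33.5 and 36.5 CPM in *ZK3*-WT and 47.3, 46.8 and 52.8 CPM in *ZK3*-KO (log2 fold change 0.39, standard error 0.15, FDR 0.220 in edgeR). *ATP6V1E1*, part of the peripheral stalks that hold the motor still, had 68.8, 62.5 and 68.8 CPM in *ZK3*-WT and 79.1, 78.1 and 92.0 CPM in *ZK3*-KO (log2 fold change 0.32, FDR 0.279 in edgeR). The groups of both did not overlap. *ATP6V1G1*, which pairs with the E subunit in the stalks, had 46.4, 52.5 and 52.6 CPM in *ZK3*-WT and 50.3, 51.5 and 64.1 CPM in *ZK3*-KO, a log2 difference of 0.13 (FDR 0.703 in edgeR).

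*ATP6V1A*, the subunit that hydrolyses ATP, and *ATP6V1C1*, which joins the stalks to the membrane sector, had the same order of libraries within *ZK3*-KO. *ATP6V1A* had 82.2, 76.7 and 67.2 CPM in *ZK3*-WT and 108, 114 and 60.3 CPM in *ZK3*-KO, and *ATP6V1C1* at 99.3, 91.2 and 82.8 CPM and 139, 147 and 74.7 CPM. Replicates 1 and 2 were above all *ZK3*-WT libraries and replicate 3 below them all. The log2 fold changes were 0.32 and 0.40 (FDR 0.538 and 0.458 in edgeR) with all libraries and 0.57 and 0.65 (FDR 0.0243 and 0.0140) without *ZK3*-KO replicate 3. *ATP6V1B2*, the other subunit of the catalytic ring, had a log2 fold change of 0.23 and *ATP6V1H*, a regulator of ATP hydrolysis, one of 0.22, neither past the threshold.

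Of the 5 V0 subunits, 3 were higher and 1 lower in all *ZK3*-KO libraries, beside 12.7% and 13.8% of all genes. *ATP6V0C*, which forms most of the proton-carrying ring, had 64.5, 62.6 and 75.6 CPM in *ZK3*-WT and 89.2, 104 and 112 CPM in *ZK3*-KO (log2 fold change 0.59, standard error 0.15, FDR 0.110 in edgeR). *ATP6V0D1*, which links the ring to the rotor, had 37.3, 41.4 and 38.1 CPM in *ZK3*-WT and 49.6, 65.9 and 60.6 CPM in *ZK3*-KO (log2 fold change 0.59, standard error 0.15, FDR 0.109 in edgeR). Both passed in DESeq2 (adjusted p 0.0173 and 0.0211) and in edgeR without *ZK3*-KO replicate 3 (FDR 0.0408 and 0.0413). *ATP6V0B*, a further ring subunit, had 56.9, 53.4 and 56.3 CPM in *ZK3*-WT and 59.9, 69.0 and 84.6 CPM in *ZK3*-KO (log2 fold change 0.36, FDR 0.298 in edgeR).

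*ATP6V0E1*, a small hydrophobic subunit, had the lowest log2 fold change of the V-ATPase members. It had 43.5, 44.0 and 45.1 CPM in *ZK3*-WT and 23.3, 24.4 and 41.3 CPM in *ZK3*-KO, with replicate 3 just below the *ZK3*-WT range and the other replicates far below it. The log2 fold change was -0.58 (standard error 0.24, FDR 0.252 in edgeR) with all libraries, -0.89 (FDR 0.00503) without *ZK3*-KO replicate 3. With both libraries numbered 3 left out, it passed together with *CTSH* and *ATP6V1D*, beside 6.15% of all genes. *ATP6V0A1*, the a subunit that holds the proton path, was at -0.08 on the log2 scale (FDR 0.802 in edgeR). *ATP6AP1*, the accessory subunit Ac45, had 81.3, 67.7 and 73.3 CPM in *ZK3*-WT and 84.6, 79.2 and 104 CPM in *ZK3*-KO (log2 fold change 0.27, FDR 0.420 in edgeR).

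**Figure D4:**
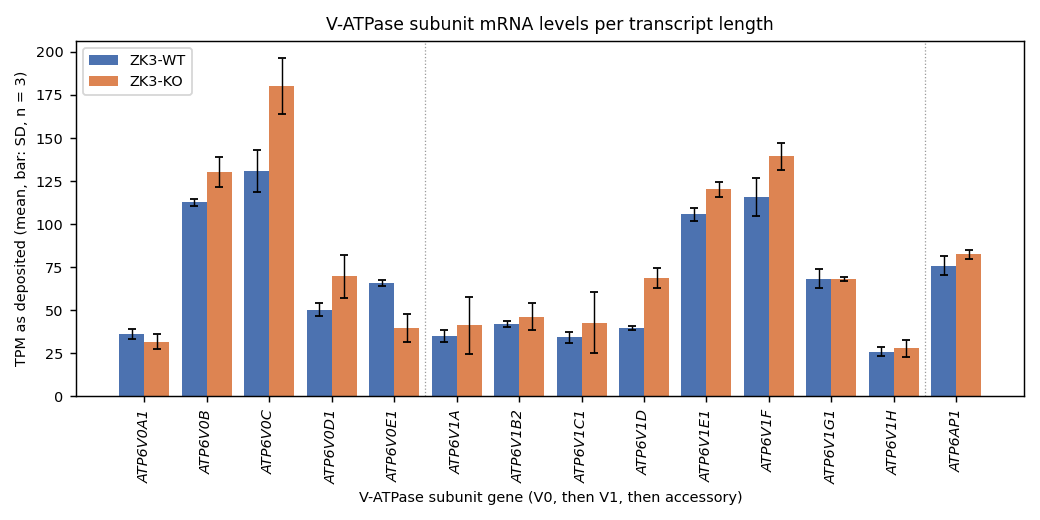
Deposited TPM of the 14 V-ATPase members (mean and SD, n = 3) in *ZK3*-WT and *ZK3*-KO cells, on a linear axis from 0. *ATP6V0C* is the tallest bar of both genotypes (131 and 180.4 TPM), and *ATP6V0E1* and *ATP6V0A1* are the V0 subunits with shorter *ZK3*-KO bars.

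Levels of the V-ATPase subunits were uneven per transcript length. In V0, *ATP6V0C* was the highest, at 131 ± 12.3 TPM in *ZK3*-WT and 180.4 ± 16.3 TPM in *ZK3*-KO, and *ATP6V0A1* the lowest, at 36.0 ± 2.77 and 31.5 ± 4.39 TPM (SD, n = 3). In V1, *ATP6V1F* was the highest, at 116 ± 11.1 and 139 ± 7.86 TPM, and *ATP6V1H* the lowest, at 25.9 ± 2.77 and 27.7 ± 5.00 TPM (SD, n = 3). *ATP6V1D* stood at 39.6 ± 1.32 TPM in *ZK3*-WT and at 68.6 ± 5.62 TPM in *ZK3*-KO (SD, n = 3), about the level of *ATP6V1G1* (68.3 ± 5.73 and 68.1 ± 0.920 TPM). The a subunit has 4 gene forms that direct the pump to different membranes, of which *ATP6V0A1* is a member. Of their summed TPM, *ATP6V0A1* made up 49.9 ± 2.74% in *ZK3*-WT and 53.6 ± 2.61% in *ZK3*-KO, *TCIRG1* 36.3 ± 4.24% and 36.8 ± 4.29%, *ATP6V0A2* 13.6 ± 3.07% and 9.39 ± 2.79%, and *ATP6V0A4* 0.279 ± 0.144% and 0.207 ± 0.104% (SD, n = 3).

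Among the 5 mTORC1 genes none passed in any fit. Of all genes, 2.05% passed in edgeR with all libraries, and 0.261% to 15.1% with 1 library left out. *RPTOR*, the subunit that binds Rag GTPases and substrates, had 78.5, 78.4 and 84.6 CPM in *ZK3*-WT and 99.2, 109.7 and 102 CPM in *ZK3*-KO, without overlap (log2 fold change 0.36, standard error 0.13, FDR 0.201 in edgeR). *RRAGD*, a Rag GTPase, was lower in all *ZK3*-KO libraries, with 29.2, 24.5 and 23.7 CPM in *ZK3*-WT and 22.8, 21.0 and 22.5 CPM in *ZK3*-KO (log2 fold change -0.22, FDR 0.475 in edgeR). Its close relative *RRAGC* had 21.5, 20.9 and 25.2 CPM and 18.2, 18.1 and 21.2 CPM, overlapping in 1 library (log2 fold change -0.23, FDR 0.478 in edgeR). *FLCN*, which activates RRAGC and RRAGD, had a log2 fold change of 0.20. That of *MTOR* was 0.23 (FDR 0.669 in edgeR) with all libraries and 0.46 (FDR 0.0560) without *ZK3*-KO replicate 3. *MTOR*, the kinase itself, had the highest mean TPM of the role over all 6 libraries, at 26.3 ± 2.54 TPM in *ZK3*-WT and 29.1 ± 11.6 TPM in *ZK3*-KO (SD, n = 3), with *RPTOR* close to it at 24.9 ± 0.963 and 29.6 ± 4.26 TPM. *RRAGD* had the lowest, at 10.4 ± 1.16 and 8.20 ± 0.828 TPM.

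**Figure D5:**
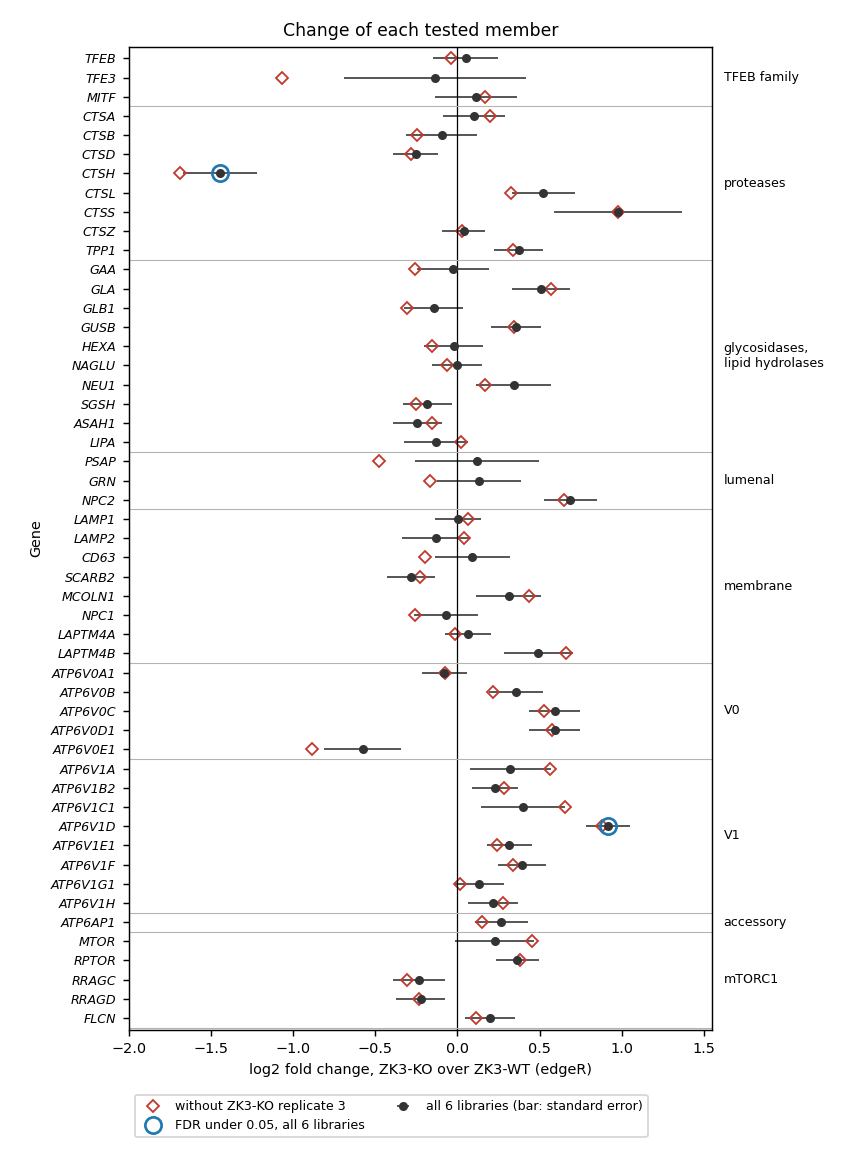
The log2 fold change of each tested member with all 6 libraries (dots, bars for the standard error from edgeR) and without *ZK3*-KO replicate 3 (diamonds), grouped by role. Circles mark the 2 members with an FDR under 0.05, and the diamond of *TFE3* (-1.07) lies farthest from its dot.

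How far the members depended on 1 library differed by gene. Relative to the mean of *ZK3*-KO replicates 1 and 2, replicate 3 was higher by 1.90 for *TFE3*, 1.35 for *PSAP*, 0.79 for *ATP6V0E1*, 0.79 for *GRN* and 0.75 for *CD63* on the log2 scale. It stood at -0.93 for *ATP6V1C1*, -0.88 for *ATP6V1A* and -0.81 for *MTOR*. Without it, 10 of the 51 members passed an FDR of 0.05 in edgeR (19.6%), beside 15.1% of all genes in that fit (7.41% higher, 7.73% lower). Of these, 7 were higher, *NPC2*, *LAPTM4B*, *ATP6V0C*, *ATP6V0D1*, *ATP6V1A*, *ATP6V1C1* and *ATP6V1D*, and 3 were lower, *TFE3*, *CTSH* and *ATP6V0E1*. Over the settings tried, other than the one without both libraries numbered 3, the highest FDR was 0.365 for *NPC2*, 0.642 for *LAPTM4B*, 0.414 for *ATP6V0C*, 0.370 for *ATP6V0D1*, 0.858 for *ATP6V1A*, 0.787 for *ATP6V1C1*, 0.985 for *TFE3* and 0.567 for *ATP6V0E1*, against 0.153 for both *CTSH* and *ATP6V1D*. Leaving out *ZK3*-KO replicate 1 or 2 left 0 members past the threshold in edgeR, beside 0.392% and 0.835% of all genes. Leaving out *ZK3*-WT replicate 1, 2 or 3 also left 0, beside 0.357%, 0.261% and 0.303% of all genes. DESeq2 with all libraries put 5 members past an adjusted p of 0.05, beside 8.2% of all genes.

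Beyond the gene set, 116 further genes of the same pathways were read from the same fit, of which 111 were tested. *GALC*, *ACP5*, *ATP6V0D2*, *ATP6V1G3* and *TFEC* had too few reads. They were divided evenly, with 57 above 0 and 54 below (51.7% of all genes were above 0) and a median log2 fold change of 0.02, and the groups of 29 (26.1%) did not overlap, beside 26.6% of all genes. The 1 gene past the threshold was *ARSG*, a lysosomal sulfatase, which fell from 28.4, 44.1 and 41.8 CPM in *ZK3*-WT to 16.0, 14.4 and 14.5 CPM in *ZK3*-KO (log2 fold change -1.35, standard error 0.20, FDR 0.0235 in edgeR). With the replicate number as a block 2 of the genes passed, *ARSG* and *SESN3*, a stress-induced inhibitor of mTORC1 (log2 fold change -1.16, FDR 0.0432 in that fit, 0.188 without the block and up to 0.539 over the alternatives). Without *ZK3*-KO replicate 3, 14 of the 111 passed (7 higher, 7 lower, 12.6% beside 15.1% of all genes).

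By list, 0 of 29 other hydrolases were past the threshold upward and 1 downward in edgeR with all libraries. In the same fit 0 of 25 other membrane proteins, 0 of 10 genes for enzyme delivery, 0 of 16 other V-ATPase genes and 0 of 31 other mTORC1 and TFEB control genes passed. Beside these counts, 2.05% of all genes passed. At unadjusted p under 0.05 these lists had 4, 5, 3, 4 and 4 genes, 20 of 111 in all, beside 18.4% of all genes. DESeq2 put 7 of the 111 past an adjusted p of 0.05, beside 8.2% of all genes. The medians of the lists were -0.02, -0.09, 0.14, -0.02 and 0.10, in the same order.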

How the data were processed

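RNA of 3 *ZK3*-WT and 3 *ZK3*-KO cultures was sequenced by the authors from stranded, poly(A)-selected libraries. The authors deposited a table of read counts per gene without normalization, made with Bowtie2 2.2.5 and hg19 (GRCh37) per the submitters' processing notes. The deposited TPM values are scaled by transcript length and to a common sum, and were used for levels between genes and in 1 alternative. The FPKM values the authors deposited were not used. The methods name an Ensembl annotation, whereas the table carries NCBI Gene identifiers, and whether reads were counted by strand is not given in the sources used here.

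The counts went into edgeR 4.0.16 in R 4.3.3 (filterByExpr, TMM factors, quasi-likelihood test, genotype as the only factor). Benjamini-Hochberg adjustment covered all 18366 genes tested, and the threshold was an FDR of 0.05. CPM are TMM-normalized, and log2 values for single libraries have a prior count of 2. No library was a copy of another (chi-square per degree of freedom 41.5 to 543). The scripts were tested on simulated counts.

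The members and lists were chosen with earlier results of these data known. Named with every library's value are the TFEB family, members past the threshold, members whose groups did not overlap, and the highest and lowest log2 fold change of each role. Also named are the highest and lowest TPM of each role, members past the threshold in a fit without 1 library, members not tested, and pathway genes past the threshold. Promoters shown are those of the 3 members with the smallest p and of members with TCACGTGA, at most 8 (*LAMP1* was left out by this limit). Gene positions are from GENCODE on GRCh37 and promoters from RefSeq on GRCh38.p14, matched by symbol.

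Deviations of same-numbered libraries from their group means correlated across genes (r 0.294, 0.112 and 0.449 for the pairs numbered 1, 2 and 3). Different numbers gave -0.343 to 0.209, and the highest of these, *ZK3*-WT 1 with *ZK3*-KO 2, was above the pair numbered 2. Deviations within a group cancel out, so these values do not vary independently. The numbers were taken as pairs in a fit with the replicate number as a block. What the numbers mark is not stated. Other alternatives were DESeq2 1.42.0, limma 3.58.1 on log2(TPM + 1), library totals alone, upper-quartile factors, no filter, at least 10 reads in every library, and each library left out. A fit without both libraries numbered 3 was added after seeing the data.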

Additional observations from a re-analysis of the deposited data

How the results depend on the processing

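Every member was measured in only 3 libraries per group, and *CTSS* had only 9 to 24 reads per library. The standard errors come from the edgeR fit, which shares information on the spread across all genes. They are therefore not the spread of each member alone. Of the results for 29 named members under each alternative, 369 kept their direction and their side of the threshold, 12 moved past it, 10 (all of *CTSH* and *ATP6V1D*, with 1 library left out) moved back over it and 14 changed sign. The cause of these changes was not tested.

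DESeq2 gave 1506 genes (711 higher, 795 lower), 5 members (4 higher) and 7 other pathway genes (5 higher, 2 lower). Library totals alone gave 2 other pathway genes, both lower, limma on log2(TPM + 1) gave 88 higher genes, and no filter gave 97 higher genes. With 1 library left out there were 49 to 2858 genes (11 to 1399 higher, 38 to 1459 lower), 0 to 10 members (0 to 7 higher, 0 to 3 lower) and 0 to 14 other pathway genes (0 to 7 in each direction). Without both libraries numbered 3 there were 1135 genes (517 higher, 618 lower), 3 members (2 lower) and 4 other pathway genes (1 higher, 3 lower). Unadjusted p under 0.05 in edgeR gave 14 members (12 higher, 2 lower), beside 18.4% of all genes (1633 genes higher, 1738 lower).

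With the replicate number as a block, 461 genes, 2 members and 2 other pathway genes (both lower) passed, *PSAP* changed sign to -0.036, and no other call of a named member changed.

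Under log2(TPM + 1) the median of all genes moved from 0.02 to -0.08, and those of the members to -0.036, proteases to -0.061, glycosidases and lipid hydrolases to -0.17, membrane proteins to -0.11, V1 to 0.17 and mTORC1 genes to 0.061. With library totals alone the members' median was 0.035, that of membrane proteins -0.049 and that of V1 0.24. Without both libraries numbered 3 that of membrane proteins was -0.044.

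With 1 library left out the median of proteases ranged from 0.0093 to 0.19, that of membrane proteins from 0.012 to 0.092, that of V1 from 0.22 to 0.36 and that of mTORC1 genes from 0.026 to 0.20.

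*TFEB* was at -0.037 with library totals alone and at -0.058 under log2(TPM + 1), where *MITF* was at -0.010, *PSAP* at -0.16 and *ATP6V1G1* at -0.0012. With 1 library left out, *TFEB* ranged from -0.039 to 0.12, *TFE3* from -1.07 to 0.19, *MITF* from -0.033 to 0.28 and *PSAP* from -0.47 to 0.39. Without both libraries numbered 3 *PSAP* was at -0.41.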
